A study of Homo sapiens with 6 samples.

Results

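The TNF superfamily holds the ligands and receptors with which immune cells costimulate one another, and 10 of its genes were followed here across 6 arrays of a myeloma cell line: the ligands TNFSF9, CD70, TNFSF8, TNF, LTA and LTB, and the receptors TNFRSF9, TNFRSF8, CD40 and TNFRSF1B. All probe sets that the platform annotation assigns to these genes were taken, which gave 14 of the 22277 probe sets, and the 10 genes are 10 of the 11963 genes with a probe set of a single symbol. NCI-H929, a line established from a patient with multiple myeloma, was electroporated with siRNA against RRM1 (2 arrays, called siRRM1), with siRNA against RRM2 (2 arrays, siRRM2) or with a non-targeting siRNA (2 arrays, scramble), and RNA was taken 24 hours later. RRM1 and RRM2 are the subunits of ribonucleotide reductase, which supplies the building blocks of DNA. The 2 arrays of a group share 1 cell line and 1 target, and the labels do not say whether they came from separate cultures, so every p-value measures the spread between these arrays, which may be technical. The genes were chosen by their family, with the differences of log2 signal between the knockdowns and scramble on these arrays already known, above all that of TNFSF9. Their differences from scramble are therefore a description, and an adjusted p beside them gives only the gene's place in a fit over all genes.

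Ligands of the TNF superfamily are mostly membrane proteins that act as trimers, and their receptors carry cysteine-rich repeats outside the cell. A bound receptor clusters and either recruits TRAF adaptors, which switch on NF-kappaB and stress kinases, or, if it has a death domain, can start cell death. Costimulation works in pairs, in which a ligand on one immune cell supports the division and survival of another cell that carries the receptor: TNFSF9 binds TNFRSF9, CD70 binds CD27, TNFSF8 binds TNFRSF8, CD40 ligand binds CD40, TNF and LTA bind TNFRSF1A and TNFRSF1B, and LTA with LTB binds the lymphotoxin beta receptor. Plasma cells and myeloma cells depend on survival signals of this family, one of whose receptors is TNFRSF17.

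The sequence before the transcription start is shown for TNFSF9, the gene with the largest difference among the 10, and for TNFRSF9, its receptor, so that the pair can be compared. Both are 250 bases ending just before the annotated start, 5′ to 3′ on the gene's strand, from RefSeq's GRCh38.p14. The set of promoter sequences used here held an entry for 7 of the 10 genes (all but CD70, TNFSF8 and CD40). TNFSF9 lies at chr19:6530776-6531025 on the plus strand and TNFRSF9 at chr1:7940840-7941089 on the minus strand. Capitals mark matches to the Sp1 box, which reads GGGCGG on one strand or the other, to the AP-1 site, TGANTCA, to the NF-kappaB consensus, and to the TATA box, searched on the gene's strand alone as TATAAA.
TNFSF9 promoter: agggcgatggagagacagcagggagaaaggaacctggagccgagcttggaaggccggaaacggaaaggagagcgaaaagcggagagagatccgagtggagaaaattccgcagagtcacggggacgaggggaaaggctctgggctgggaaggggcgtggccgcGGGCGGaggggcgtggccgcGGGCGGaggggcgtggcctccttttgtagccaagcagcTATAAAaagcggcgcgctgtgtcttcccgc
TNFRSF9 promoter: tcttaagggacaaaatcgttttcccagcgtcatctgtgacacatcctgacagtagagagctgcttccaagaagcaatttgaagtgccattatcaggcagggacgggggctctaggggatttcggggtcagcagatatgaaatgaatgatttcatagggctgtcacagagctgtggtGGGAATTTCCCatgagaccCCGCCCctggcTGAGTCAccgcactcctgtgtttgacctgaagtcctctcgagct
The TNFSF9 sequence held 2 Sp1 boxes, 88 to 83 and 68 to 63 bases upstream of the start, and a TATA box 30 to 25 bases upstream. The TNFRSF9 sequence held an NF-kappaB consensus match on each strand, which overlap 74 to 64 bases upstream, an AP-1 match 44 to 38 bases upstream and an Sp1 box 55 to 50 bases upstream, and no TATA box. Both strands were searched except for the TATA box, and the CRE (TGACGTCA) and the p53 half-site consensus were searched too, without a match in either sequence. Of 35116 promoters of the same length, 42.6% held an Sp1 box, 6.8% a TATA box, 6.57% an AP-1 match, 5.21% an NF-kappaB match, 5.57% a p53 half-site match and 1.65% a CRE. A match is a run of letters and not evidence of binding. In the same windows of the other entries, 1 of the 2 LTA starts held 1 NF-kappaB match, 1 Sp1 box and a TATA box. The 2 LTB windows overlap almost fully and held the same 1 NF-kappaB match. TNF held 2 Sp1 boxes and a TATA box, TNFRSF8 held 1 Sp1 box and TNFRSF1B held 2.

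Values are the deposited log2 signals, with array medians between 6.11 and 6.16. Where a gene had several probe sets, the one with the highest mean stood for it, and the 7936 genes whose mean was at least 5.44 (the 40th percentile) were tested with limma, the groups together in 1 fit, and called at a Benjamini-Hochberg adjusted p under 0.05. The targeted genes fell: in siRRM1 the RRM1 probe set 201477_s_at kept 22.4% and 11.7% of the mean scramble signal, and in siRRM2 the RRM2 probe set 201890_at kept 21.2% and 39.6%. The other RRM1 probe set, 201476_s_at, kept 24.3% and 11.1% in siRRM1. The other RRM2 probe set, 209773_s_at, kept less than 201890_at in siRRM2, 12.8% and 18.5%. The log2 differences given next are those of 201477_s_at and 201890_at. RRM1 fell by 2.63 in siRRM1 (limma adjusted p = 0.00154) and RRM2 fell by 1.79 in siRRM2 (limma adjusted p = 0.0214, and 0.0739 without replicate 1 or 0.0552 without replicate 2 of scramble). All 7 plasma cell markers with a probe set were above the minimum, and 4 of 5 B cell markers were below it. The excess of 3′ over 5′ signal of the cells' own actin transcript, which rises with RNA degradation, was 0.03 and 0.33 log2 units in siRRM1, 0.05 and 0.05 in siRRM2, and 0.34 and 0.15 in scramble, and that of GAPDH lay between -0.11 and -0.01 on every array. Over 9 control sets, 7 of them bacterial spike-ins that do not come from the cells, the median excess was 1.25 on replicate 2 of siRRM1 and 0.83 to 0.95 on the other arrays.

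Of the 10 genes, 6 passed the minimum and 4 did not (TNF, LTA, TNFRSF9 and TNFRSF8). In siRRM1 against scramble 2 of the 6 rose (TNFSF9 and CD70), none fell by limma and 4 did not pass (2 of the 6 had an unadjusted p under 0.05), beside 15.5% of all genes tested that passed in either direction and 8.22% that rose. In siRRM2 against scramble 1 of the 6 rose (TNFSF9, the only one with an unadjusted p under 0.05), beside 2.52% of all genes in either direction and 2% that rose. The median log2 difference of the 6 was 0.15 in siRRM1 and 0.08 in siRRM2, against -0.01 and -0.0033 over all genes tested. TNFSF9 passed the minimum only through its knockdown arrays, since its scramble arrays lay below it, so the 6 genes that passed are a selected set and their counts describe only themselves. In these bulk RNA samples a change in the share of cells that make a transcript and a change in the amount per cell cannot be told apart.

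**Figure D1:**
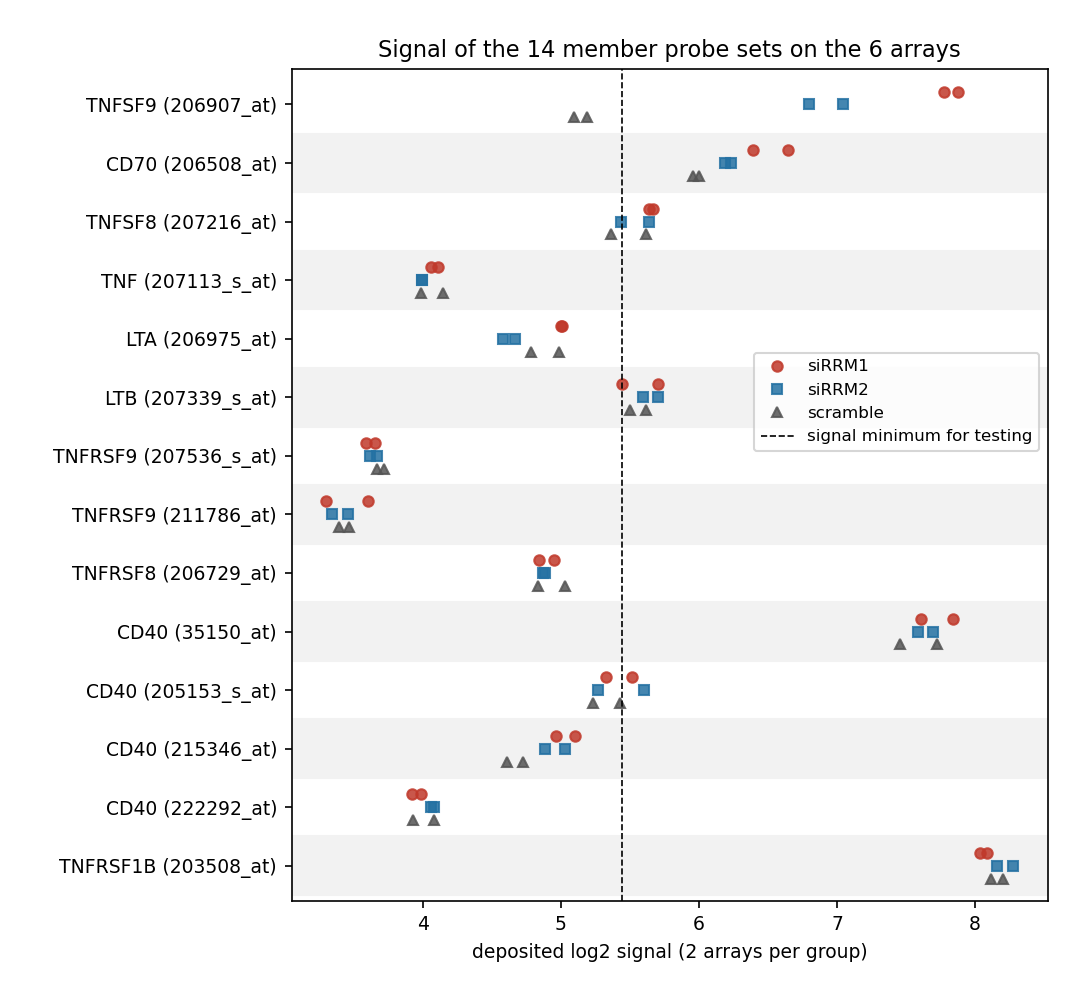
Deposited log2 signal (horizontal axis) of the 14 probe sets of the 10 genes, from TNFSF9 at the top to TNFRSF1B at the bottom; each point is 1 array, with siRRM1 above siRRM2 above scramble in each band, and the dashed line is the minimum of 5.44. TNFSF9 separates into 3 levels, with means of 7.83, 6.92 and 5.14, over a range of 2.78. The groups of CD70 and LTA do not overlap either, over ranges of only 0.69 and 0.42. The other probe sets also stay within narrow bands.

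TNFSF9, the ligand of CD137 on T cells and itself known mainly from antigen-presenting cells, had log2 signals of 7.77 and 7.88 in siRRM1, 6.80 and 7.04 in siRRM2, and 5.10 and 5.19 in scramble (probe set 206907_at, its only one). Each knockdown array lay above both scramble arrays, and both siRRM1 arrays lay above both siRRM2 arrays. The signal was 6.42-fold higher in siRRM1 than in scramble (log2 difference 2.68, SE 0.11, limma adjusted p = 8.43e-05), the 11th highest of 7936 differences. It was 3.43-fold higher in siRRM2 than in scramble (log2 difference 1.78, SE 0.11, limma adjusted p = 0.00275), the 9th highest there. The call held in both comparisons in each of the 14 alternative settings that tested TNFSF9, all but the one with a minimum of 6.95, which left it out. Without replicate 2 of siRRM1, the array with the highest median 3′ excess of the control sets, the siRRM1 difference was 2.63. Over the 14 settings the siRRM1 difference ran from 2.63 to 2.73 and the siRRM2 difference from 1.66 to 1.90. Only centring, quantile normalization and leaving out an array of a compared group could move these differences.

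TNFSF9 also differed between the knockdowns, being 1.87-fold higher in siRRM1 than in siRRM2 (log2 difference 0.91, SE 0.11, limma adjusted p = 0.0389). It was the only one of the 6 genes to pass in this comparison, in which 0.164% of all genes tested passed and 0.126% were higher in siRRM1. The call was lost without any 1 of the 4 knockdown arrays. Such a fit leaves 1 array in a group, and fewer of all genes tested passed in it too. The call was also lost with every probe set as its own feature (limma adjusted p = 0.0582). The difference ran from 0.79 to 1.03 over the 14 settings. Only centring, quantile normalization and leaving out a knockdown array could move this difference, and the other settings keep it by design. The arrays also differed in how much target was left, and the siRRM2 array with less RRM2 signal left, replicate 1, was the one with the lower TNFSF9 signal. In siRRM1 it was the other way round: the array with less RRM1 left, replicate 2, had the higher TNFSF9 signal. With 2 arrays per group no relation between knockdown depth and TNFSF9 could be tested.

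CD70, the ligand of CD27 and a gene of activated lymphocytes, had log2 signals of 6.39 and 6.65 in siRRM1, 6.19 and 6.23 in siRRM2, and 5.96 and 6.00 in scramble. The 3 groups did not overlap and stood in the same order as for TNFSF9, but closer together. CD70 was 1.45-fold higher in siRRM1 than in scramble (log2 difference 0.54, SE 0.11, limma adjusted p = 0.0167), at place 421 of 7936. This call was lost without replicate 2 of siRRM1 (0.41, adjusted p = 0.0820), without replicate 1 of scramble (0.52, adjusted p = 0.0773) and without replicate 2 of scramble (0.56, adjusted p = 0.0512). In siRRM2 the difference of 0.23 from scramble did not pass (SE 0.11, limma adjusted p = 0.274, 95% interval -0.02 to 0.48). The difference of 0.31 between siRRM1 and siRRM2 did not pass either (limma adjusted p = 0.398). Groups without overlap were common on these arrays. Between siRRM1 and scramble 4 of the 6 genes did not overlap, beside 59.3% of all genes tested. Between siRRM2 and scramble it was 2 of the 6, beside 54.7%, and between siRRM1 and siRRM2 3 of the 6, beside 40.8%.

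TNFSF9 and CD70 are next to each other on chromosome 19, with no protein-coding gene between them in RefSeq, and TNFSF14, a ligand that costimulates T cells through its receptor TNFRSF14, follows CD70 in the same way. TNFSF14 was below the minimum and not tested. Its log2 signals were 4.39 and 4.49 in siRRM1, 4.39 and 4.31 in siRRM2, and 4.40 and 4.40 in scramble. The siRRM1 arrays overlapped both other groups, and both siRRM2 arrays lay just below the scramble arrays. The TNFSF14 means differed from scramble by 0.04 in siRRM1 and by -0.05 in siRRM2. Of these 3 neighbours TNFSF9 thus had the widest spread between groups, CD70 a smaller one and TNFSF14 the smallest.

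TNFSF8, the ligand of CD30 on activated lymphocytes, had log2 signals of 5.64 and 5.67 in siRRM1, 5.43 and 5.64 in siRRM2, and 5.37 and 5.62 in scramble. Its differences from scramble were 0.16 in siRRM1 (limma adjusted p = 0.384, 95% interval -0.11 to 0.44) and 0.05 in siRRM2 (limma adjusted p = 0.875, 95% interval -0.23 to 0.32). Both siRRM1 arrays lay above both scramble arrays, by less than the gap between the scramble arrays, and siRRM2 overlapped scramble.

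LTA, TNF and LTB follow one another on chromosome 6. TNF, the inflammatory cytokine that gives the family its name, was below the minimum, with log2 signals of 4.11 and 4.06 in siRRM1, 4.0 and 4.0 in siRRM2, and 4.15 and 3.99 in scramble. All 4 knockdown arrays lay between the scramble arrays. LTA, the secreted lymphotoxin made by lymphocytes, had 5.00 and 5.01 in siRRM1, 4.58 and 4.67 in siRRM2, and 4.78 and 4.98 in scramble. It was also below the minimum and not tested. Its siRRM2 arrays lay below all the others, and its siRRM1 arrays lay just above both scramble arrays. The log2 difference from scramble was 0.12 in siRRM1 and -0.26 in siRRM2, and that between siRRM1 and siRRM2 was 0.38. LTB, which anchors lymphotoxin to the cell surface, had 5.44 and 5.71 in siRRM1, 5.60 and 5.71 in siRRM2, and 5.50 and 5.62 in scramble. The groups overlapped throughout, with differences from scramble of 0.02 in siRRM1 (limma adjusted p = 0.945) and 0.09 in siRRM2 (limma adjusted p = 0.705).

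TNFRSF9, the receptor of TNFSF9 on activated T and NK cells, was below the minimum on both of its probe sets. Probe set 207536_s_at had 3.65 and 3.59 in siRRM1, 3.62 and 3.67 in siRRM2, and 3.67 and 3.72 in scramble, and probe set 211786_at had 3.30 and 3.60 in siRRM1, 3.46 and 3.34 in siRRM2, and 3.39 and 3.47 in scramble. The knockdown means differed from scramble by -0.07 in siRRM1 and -0.05 in siRRM2 on the first probe set, and by 0.02 in siRRM1 and -0.03 in siRRM2 on the second. The ligand's signal thus differed between the groups on arrays where its receptor stayed under the minimum. CD27, the receptor of CD70, was likewise below the minimum, with 4.97 and 5.03 in siRRM1, 4.86 and 4.93 in siRRM2, and 4.68 and 4.91 in scramble.

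TNFRSF8, better known as CD30 and the receptor of TNFSF8, had log2 signals of 4.84 and 4.95 in siRRM1, 4.89 and 4.87 in siRRM2, and 4.83 and 5.03 in scramble, below the minimum. The scramble pair spanned all 4 knockdown arrays. TNFRSF1B, the TNF receptor without a death domain, was above the minimum on every array, with 8.08 and 8.03 in siRRM1, 8.16 and 8.28 in siRRM2, and 8.20 and 8.12 in scramble. Its siRRM1 arrays lay just under the scramble arrays. The difference of -0.10 did not pass (limma adjusted p = 0.490, 95% interval -0.31 to 0.11), nor did that of 0.06 in siRRM2 (limma adjusted p = 0.779, 95% interval -0.15 to 0.27). TNFRSF8 and TNFRSF1B are neighbours on chromosome 1 with no protein-coding gene between them, and TNFRSF1B did not pass while TNFRSF8 was not tested.

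CD40, which B cells and other antigen-presenting cells use to receive help from T cells, was the gene with the most probe sets, 4. The one with the highest mean, 35150_at, had 7.61 and 7.84 in siRRM1, 7.69 and 7.59 in siRRM2, and 7.46 and 7.72 in scramble. The groups overlapped, and the differences of 0.13 in siRRM1 (limma adjusted p = 0.505, 95% interval -0.16 to 0.43) and 0.05 in siRRM2 (limma adjusted p = 0.862, 95% interval -0.24 to 0.34) did not pass. The probe sets disagreed: 215346_at, below the minimum, had 4.96 and 5.10 in siRRM1, 4.89 and 5.03 in siRRM2, and 4.73 and 4.61 in scramble, which put every knockdown array above both scramble arrays, with differences from scramble of 0.36 in siRRM1 and 0.29 in siRRM2. Of the remaining CD40 probe sets, 205153_s_at differed from scramble by 0.09 in siRRM1 and 0.10 in siRRM2, and 222292_at by -0.05 in siRRM1 and 0.06 in siRRM2.

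**Figure D2:**
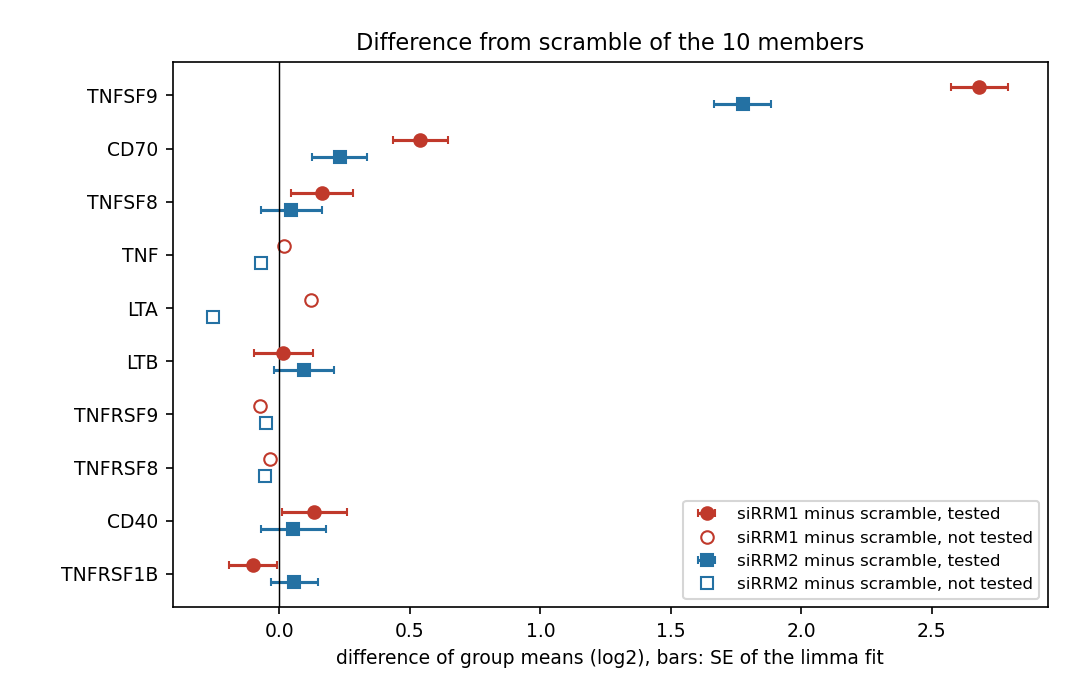
Difference of the group means in log2 units (horizontal axis) between each knockdown and scramble for the 10 genes; filled points were tested and carry the SE of the limma fit as bars, and open points were below the minimum and not tested. TNFSF9 stands at 2.68 in siRRM1 and 1.78 in siRRM2, CD70 at 0.54 and 0.23, and the rest lie between -0.26 and 0.16.

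**Figure D3:**
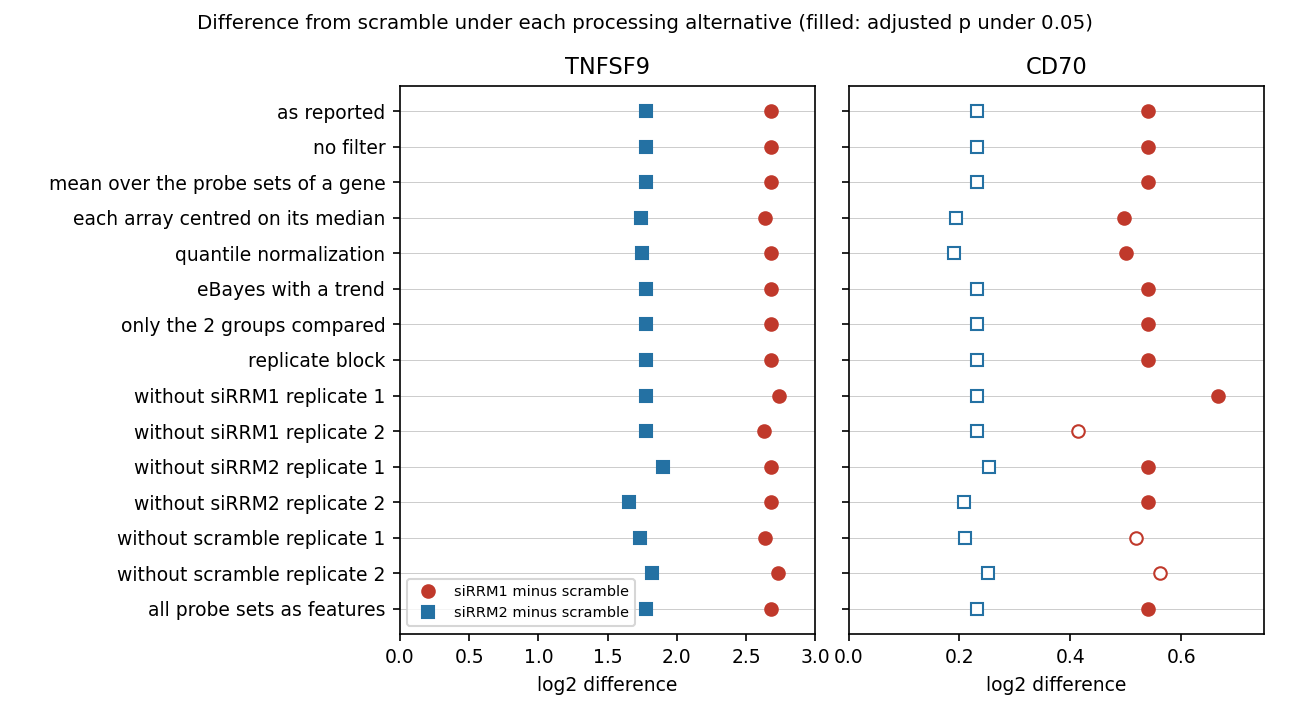
Log2 difference from scramble (horizontal axes, each with its own range) of TNFSF9 and CD70 as reported and in the 14 alternative settings that gave a value; circles are siRRM1, squares siRRM2, and filled points had an adjusted p under 0.05. Every TNFSF9 point is filled, the CD70 points are open for siRRM2, and 3 of those for siRRM1 are open.

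Beyond the 10 genes, 4 lists of the pathway were counted. Of 12 other ligands of the family 9 had a probe set and 2 were tested, TNFSF4 and EDA, neither of which passed in a knockdown by limma (1 in siRRM1 and 0 in siRRM2 had an unadjusted p under 0.05). TNFSF4, the ligand of OX40 on T cells, was the closer of the 2, with 6.03 and 5.83 in siRRM1, 5.58 and 5.67 in siRRM2, and 5.66 and 5.56 in scramble (siRRM1 difference 0.32, limma adjusted p = 0.0769). The other 7 were below the minimum. Among them TNFSF10 differed most, by 0.46 in siRRM1 and 0.58 in siRRM2 on 202687_s_at. Its other probe sets differed by 0.03 and 0.28 in siRRM1 and by 0.47 and 0.11 in siRRM2. Of 20 other receptors (the TRAIL receptors and osteoprotegerin left aside) 15 had a probe set and 11 were tested. FAS and TNFRSF12A rose in siRRM1, FAS rose in siRRM2 and none fell, which is 2 of 11 in siRRM1 beside 15.5% of all genes tested and 1 of 11 in siRRM2 beside 2.52%. The median log2 difference of the 11 was 0.09 in siRRM1 and 0.03 in siRRM2, against -0.01 and -0.0033 over all genes.

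FAS, the death receptor, had log2 signals of 9.24 and 8.97 in siRRM1, 8.32 and 8.38 in siRRM2, and 7.07 and 6.99 in scramble. Its arrays stood in the same order of groups as those of TNFSF9, without overlap. The difference from scramble was 2.08 in siRRM1 (SE 0.11, limma adjusted p = 1.80e-04) and 1.32 in siRRM2 (SE 0.11, limma adjusted p = 0.00408). The difference of 0.75 between siRRM1 and siRRM2 did not pass (limma adjusted p = 0.0656), but passed with quantile normalization (0.0457) and with a variance trend (0.0346). The other 3 probe sets of FAS differed from scramble by 1.87 to 2.54 in siRRM1 and by 1.08 to 1.64 in siRRM2. TNFRSF12A, the receptor of TWEAK, had 8.19 and 7.97 in siRRM1, 7.82 and 7.81 in siRRM2, and 7.43 and 7.48 in scramble. It rose in siRRM1 (0.63, limma adjusted p = 0.00861), and its difference of 0.36 in siRRM2 did not pass (limma adjusted p = 0.111). TNFRSF17, the receptor that supports plasma cell survival, was tested and did not pass, at 13.03 and 12.96 in siRRM1, 13.32 and 13.17 in siRRM2, and 13.30 and 13.13 in scramble.

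Below the receptors, 24 of 27 listed genes of TRAF and NF-kappaB signalling had a probe set and 22 were tested. In siRRM1 4 rose (TNFAIP3, RELB, NFKB2 and TRAF1) and 1 fell (REL), and in siRRM2 2 rose (TNFAIP3 and RELB), beside 15.5% of all genes tested that passed in siRRM1 and 2.52% in siRRM2. The median of the 22 was 0.17 in siRRM1 and 0.14 in siRRM2. The siRRM1 count of 5 was 3 without replicate 2 of siRRM1 and 3 without replicate 1 of scramble, and the siRRM2 count of 2 was 0 without any 1 of the siRRM2 or scramble arrays. Of the genes that rose in siRRM1, NFKB2 (0.63, limma adjusted p = 0.0123) and TRAF1 (0.50, limma adjusted p = 0.0232) are given after their values were seen, and in siRRM2 they did not pass.

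TNFAIP3, an enzyme that edits ubiquitin and restrains NF-kappaB, and itself a well known NF-kappaB target, had 8.13 and 8.45 in siRRM1, 7.49 and 7.73 in siRRM2, and 6.79 and 6.70 in scramble. Its groups did not overlap, in the same order as for TNFSF9. It rose by 1.54 in siRRM1 (SE 0.13, limma adjusted p = 0.00106) and by 0.86 in siRRM2 (limma adjusted p = 0.0250), where the adjusted p lay between 0.0666 and 0.133 once any 1 siRRM2 or scramble array was left out. RELB, a subunit of the non-canonical NF-kappaB pathway, had 6.55 and 6.75 in siRRM1, 6.62 and 6.49 in siRRM2, and 6.00 and 5.81 in scramble. All knockdown arrays lay above scramble, while the knockdowns overlapped. RELB rose by 0.74 in siRRM1 (limma adjusted p = 0.00733, and 0.0507 without replicate 2 of siRRM1) and by 0.65 in siRRM2 (limma adjusted p = 0.0340, and between 0.0810 and 0.190 without any 1 siRRM2 or scramble array). REL, a subunit of the canonical pathway, had 5.99 and 5.75 in siRRM1, 6.70 and 6.62 in siRRM2, and 6.97 and 6.76 in scramble. It fell by 1.00 in siRRM1 (limma adjusted p = 0.00281). The other REL probe set, below the minimum, differed there by only -0.14 (SE 0.19).

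Of 17 listed genes of immunoglobulin superfamily costimulation 13 had a probe set and 5 were tested. CD58, the ligand of CD2, rose in siRRM1, CD48 fell there, and none passed in siRRM2 by limma, where 3 had an unadjusted p under 0.05. The 2 of 5 in siRRM1 stand beside 15.5% of all genes tested, and the 0 of 5 in siRRM2 beside 2.52%. CD58 had 10.95 and 11.08 in siRRM1, 10.67 and 10.84 in siRRM2, and 10.35 and 10.36 in scramble, without overlap (siRRM1 difference 0.65, limma adjusted p = 0.00715; siRRM2 difference 0.40, limma adjusted p = 0.0807). The siRRM2 difference of CD58 passed with the mean over its probe sets (0.0444) and with a variance trend (0.0352). CD48, a ligand of CD244, had 12.32 and 12.16 in siRRM1, 12.52 and 12.53 in siRRM2, and 12.75 and 12.74 in scramble. It fell by 0.51 in siRRM1 (limma adjusted p = 0.0133), and did not pass without replicate 2 of siRRM1 (0.0740) or without replicate 1 of scramble (0.0615). Between siRRM1 and siRRM2 none of the genes tested passed in any of the 4 lists by limma as fitted here, although REL (adjusted p = 0.0656) passed with a variance trend (0.0375), as FAS did. An unadjusted p under 0.05 was found there for 1 of the 2 ligands, 3 of the 11 receptors, 3 of the 22 signalling genes and 2 of the 5 immunoglobulin superfamily genes.

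**Figure D4:**
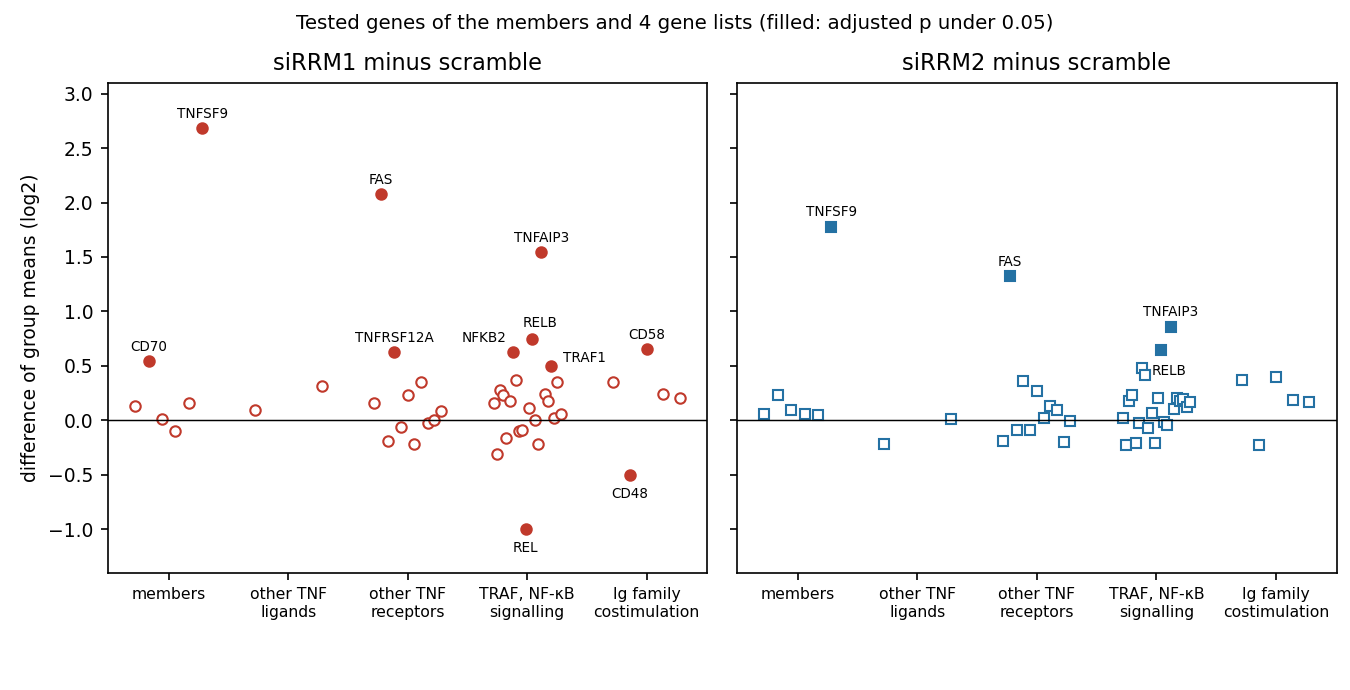
Difference of the group means in log2 units (vertical axis) from scramble in siRRM1 (left) and siRRM2 (right) for the 6 tested genes of the 10, labelled members, and for the tested genes of the 4 pathway lists; points are genes, filled and named where the adjusted p was under 0.05. FAS and TNFAIP3 reach 2.08 and 1.54 in siRRM1 beside TNFSF9 at 2.68, and most genes lie near 0.

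By the Pearson correlation of log2 signal over the 6 arrays, the genes with the pattern most like that of TNFSF9 among 7935 others were ACTA2 (0.998), TAP1 (0.998), SESN1 (0.997), CRYBB1 (0.997) and TEX264 (0.996). ACTA2 encodes smooth muscle actin, TAP1 a peptide transporter for antigen presentation, SESN1 a stress-induced sestrin and CRYBB1 a lens crystallin. ACTA2 differed from scramble by 2.10 in siRRM1 and 1.31 in siRRM2, TAP1 by 0.67 in siRRM1 and 0.47 in siRRM2, and SESN1 by 1.33 in siRRM1 and 0.84 in siRRM2. CRYBB1 differed by 1.58 in siRRM1 and 1.07 in siRRM2, and TEX264 by 0.48 in siRRM1 and 0.33 in siRRM2. A correlation over 3 groups of 2 arrays mostly records the order of the group means, and 276 genes had one above 0.95.

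Some markers of other cells passed too, beside 15.5% of all genes tested that passed in siRRM1 and 2.52% that passed in siRRM2. Of 8 myeloid markers 7 had a probe set and 3 were tested. All 3 rose in siRRM1 (S100A8 by 4.23, S100A9 by 2.55 and CSF1R by 1.5 log2 units), a count that was 1 without replicate 2 of siRRM1 and 2 without replicate 1 of scramble, and none passed in siRRM2 by limma (2 had an unadjusted p under 0.05). The other 4, CD14, LYZ, ITGAM and FCN1, were below the minimum, and their differences from scramble lay between -0.0021 and 0.16 in siRRM1 and between -0.08 and 0.13 in siRRM2. The summed linear signal of the 7 was 668 and 1517 in siRRM1, 347 and 711 in siRRM2, and 211 and 222 in scramble, of which CD14, LYZ, ITGAM and FCN1 together held 82.1 and 82.9 in siRRM1, 79.9 and 79.5 in siRRM2, and 82.4 and 79.8 in scramble. The sum thus moved through S100A8, S100A9 and CSF1R. S100A8 passed the minimum only through its knockdown arrays, since its scramble arrays (4.45 and 4.44) lay below it. The 3 markers tested are therefore a selected set.

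Of 8 T cell markers 4 were tested, and TRBC1 alone passed, rising by 1.09 in siRRM1 and by 0.64 in siRRM2, where the count of 1 was 0 without any 1 of the siRRM2 or scramble arrays. The list's summed signal was 2786 and 2509 in siRRM1, 2174 and 1895 in siRRM2, and 1398 and 1370 in scramble. Without TRBC1 it was 274 and 312 in siRRM1, 315 and 302 in siRRM2, and 264 and 290 in scramble, so that most of the list's signal was that of 1 gene. The other 7 differed from scramble by -0.08 to 0.28 in siRRM1 and by 0.02 to 0.33 in siRRM2. Of 6 NK cell markers 3 were tested and NKG7 rose in siRRM1 (1.36), a count of 1 that was 0 without replicate 2 of siRRM1 or replicate 1 of scramble. NKG7 also passed the minimum only through its knockdown arrays, since its scramble arrays (4.34 and 5.15) lay below it. The sums of the NK cell markers were 390 and 439 in siRRM1, 415 and 453 in siRRM2, and 419 and 423 in scramble. The 1 B cell marker tested did not pass in any comparison, with list sums of 151 and 157 in siRRM1, 146 and 161 in siRRM2, and 148 and 163 in scramble. Of the 7 plasma cell markers IRF4 fell in siRRM1 (by 0.63, limma adjusted p = 0.0449), and this count of 1 was 2 without replicate 1 of siRRM1 and 0 without replicate 2 of siRRM1, either siRRM2 array or replicate 1 of scramble. The sums of the plasma cell markers were 31854 and 30663 in siRRM1, 37521 and 34530 in siRRM2, and 39796 and 35471 in scramble. In siRRM1 the 1 of 4 T cell, 1 of 3 NK cell and 1 of 7 plasma cell markers that passed stand beside 15.5% of all genes tested. In siRRM2 the 1 of 4 T cell markers stands beside 2.52%. The part of all these markers in the TNFSF9 and CD70 differences was not tested.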

How the data were processed

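Biotinylated cRNA was made from total RNA by the Affymetrix protocol, per the labels' protocols. The deposited values are log2 signals by the authors for 22277 probe sets on 6 arrays. The summary and normalization method and any background correction are not given in the sources used here, and whether the arrays were scaled beyond their near-equal medians is unknown; nothing was centred per gene. Of the probe sets, 19070 had 1 gene symbol in the platform annotation, 1043 had several and 2164 had none, and only those with 1 were named. The symbols were checked against RefSeq's GRCh38.p14 gene table (19058 matched). Coordinates are given only for the 2 promoter sequences, on RefSeq's build, and none for the probe sets.

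The group means were fitted with lmFit and eBayes of limma 3.58.1 in R 4.3.3, with 3 residual degrees of freedom. Differences were scramble-based or between knockdowns, two-sided, with Benjamini-Hochberg adjustment over the 7936 genes. The script was tested on simulated data. The number of arrays limits the precision. Apart from the common minimum and the summed signals of the marker lists, no gene's level is set against another's. The 10 genes and all lists were chosen with earlier results of these data known. Outside the 10, the text names of each list up to 2 risen and 2 fallen genes with the smallest adjusted p in each knockdown, and the 5 genes most like TNFSF9; others named were chosen after their values were seen. Alternatives covered the minimum, the choice of probe set, the variance trend, the centring, the replicate block and each array left out.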

Additional observations from a re-analysis of the deposited data

How the results depend on the processing

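Without 1 array at a time, 312 to 1234 genes passed in siRRM1 against scramble (1234 with all arrays), 21 to 206 in siRRM2 (200 with all) and 2 to 16 between siRRM1 and siRRM2 (13 with all), lowest without replicate 2 of siRRM1, replicate 2 of siRRM2 and replicate 2 of siRRM1, in that order; a lone array is assumed to vary like the other groups. Deviations of same-numbered arrays from their group means correlated at 0.382 between siRRM1 and scramble, 0.363 between siRRM2 and scramble and 0.21 between siRRM1 and siRRM2, but these arrays share only a number, with no pairing in the labels. With the replicate number as a block, 1904 genes passed in siRRM1, 622 in siRRM2 and 153 between the knockdowns, and the counts of the 10 genes stayed at 2, 1 and 1. The block also brought FAS (0.0118), TNFAIP3 (0.0256) and REL (0.00480) past the threshold between the knockdowns, and CD58 (0.0358) in siRRM2. A variance trend gave 336 genes in siRRM2 and 42 between the knockdowns. With every probe set as a feature in the fit and the adjustment, 103 genes passed in siRRM2 and 4 between the knockdowns. Each gene was counted there by its probe set with the highest mean. With the minimum at the 60th percentile, 6.95, 4 genes passed between the knockdowns and 0, 0 and 0 of the 10 genes, because TNFSF9 and CD70 lie under that minimum and were not tested. Without 1 array at a time the 10 genes gave 1 to 2 calls in siRRM1, 1 to 1 in siRRM2 and 0 to 1 between the knockdowns, where every probe set as a feature also gave 0. Centring each array on its median turned the siRRM1 split to 572 higher and 818 lower, against 652 and 582, and moved the median of all genes by -0.04. For the tested genes among the 10, the 14 differences that passed in no setting changed sign in 10 of 202 refits. Many of these refits could not change a sign, because they keep the group means. These are the changes of the minimum, the variance trend, the replicate block and the fit of only the groups compared. The fit over every probe set and an array left out of the group not compared keep them too. The count of sign changes is therefore no measure of stability. No called value reversed.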

Other observations

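CD86, the costimulatory ligand of CD28 and an antigen-presenting cell marker, was not tested because its probe sets lay below the minimum, and it is given after its values were seen. Probe set 210895_s_at had log2 signals of 5.03 and 5.11 in siRRM1, 5.20 and 5.47 in siRRM2, and 4.17 and 3.92 in scramble, a difference of 1.02 in siRRM1 and 1.29 in siRRM2. Its order of the knockdowns was the opposite of that of TNFSF9, and the other CD86 probe sets differed by 0.42 and 0.15 in siRRM1 and by 0.34 and 0.17 in siRRM2.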
